A study of Mus musculus with 18 samples.

Results

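The genes of cyclic AMP (cAMP) signalling were followed in RNA-Seq of hypothalamus, pituitary and thyroid from WT and THRB K146Q mice. The set held 45 genes chosen by name: 9 adenylyl cyclases, 4 G protein alpha subunits, 2 catalytic and 4 regulatory subunits of protein kinase A (PKA), 3 PKA inhibitor peptides, 16 cAMP phosphodiesterases (PDEs), 2 Epac exchange factors, and CREB (Creb1) with 4 coactivators. All 45 were found among the 24054 genes of the table of each tissue. K146Q mice carried a whole-body knockin of the thyroid hormone receptor beta gene on both alleles, in a region shared by all THRB isoforms, and WT mice came from the same substrain, labelled C57BL/Ntac. The line had been backcrossed at least 3 times. All were untreated and 3 months old, male by the study's methods, with 3 mice a genotype: WT mice 1, 2 and 43 and K146Q mice 60, 62 and 83. Values are given in that order, and each tissue held a library from each mouse number, 18 libraries in all.

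cAMP is a messenger made from ATP inside the cell. A receptor coupled to the stimulatory G protein Gs turns on adenylyl cyclase, a receptor coupled to Gi turns it off, and phosphodiesterases break cAMP down. cAMP releases the catalytic subunits of PKA from their regulatory subunits, and PKA phosphorylates CREB, which binds the cAMP response element (CRE) in promoters. In the thyroid this is the main route by which TSH, through its receptor Tshr, drives follicular cells, and in the pituitary it carries signals such as GHRH in somatotrophs.

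The libraries held 14902330 to 21230050 reads, and 3 reads were worth 0.133 to 0.190 CPM (reads scaled to a common normalized library size). A member was called higher or lower where limma gave an adjusted p under 0.05 over all genes tested in that tissue. Thyroglobulin (Tg) lay at 293000 to 357000 CPM in WT and 83900 to 130000 CPM in K146Q thyroid, and Tshb at 235 to 593 and 5600 to 8180 CPM in pituitary, so both tissues carried their defining transcripts. Tg was not called (adjusted p = 0.82), because the trend of spread on level gave this most abundant gene a standard error of 5.14, and it was called without the trend (adjusted p = 0.00127). The thyroid libraries also held RNA of neighbouring tissues. Summed markers of adipocytes fell from 700 to 775 CPM in WT to 97.9 to 194 CPM in K146Q mice (6 of 6 markers lower), and those of parathyroid from 3450 to 6410 CPM to 523 to 1570 CPM (3 of 3 lower). C-cell markers went from 2430 to 2890 CPM to 183 to 336 CPM, with Calca and Scg2 lower, Calcb higher and Nefm under the filter on low values. In bulk tissue, fewer cells of a type and less RNA per cell cannot be told apart.

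In the thyroid, 26 of the 45 members were called, 11 higher and 15 lower in K146Q mice. Over all 15200 genes tested there, 19.7% were called higher and 18.1% lower, against 24.4% and 33.3% of the members. In the pituitary 6 members were higher and 1 lower, or 13.3% and 2.22%, against 6.36% and 3.5% of 15589 genes. In the hypothalamus none of the 45 was called by limma, where 0.0% of 15761 genes were called in either direction. There 5 of the 45 members had an unadjusted p under 0.05, beside 645 of the 15761 genes. Both edgeR and DESeq2 also called 0 members. The median log2 difference of the members was -0.23 in thyroid, -0.043 in pituitary and 0.00381 in hypothalamus, beside -0.025, -0.00875 and -0.00108 over all genes tested. The 2 genotypes did not overlap for any called member in pituitary or thyroid. Genes called on 3 against 3 mice tend to stand apart, and this was not counted over all genes, so it adds no support. An exact two-sided permutation test of 3 against 3 cannot go below p = 0.1. Adcy8 in thyroid and Pde11a in either gland passed the filter on low values only through the group where they were high, so these calls had to differ and stand in the counts on that footing.

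The balance of higher and lower calls depended on how libraries were scaled. With library totals taken without the 10 highest genes, 20 members were lower and 11 higher in thyroid, and the share of higher among all thyroid calls went from 52.1% to 40.9%. In pituitary the same change moved that share from 64.5% to 48.8% and gave 6 members higher and 2 lower.

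**Figure D1:**
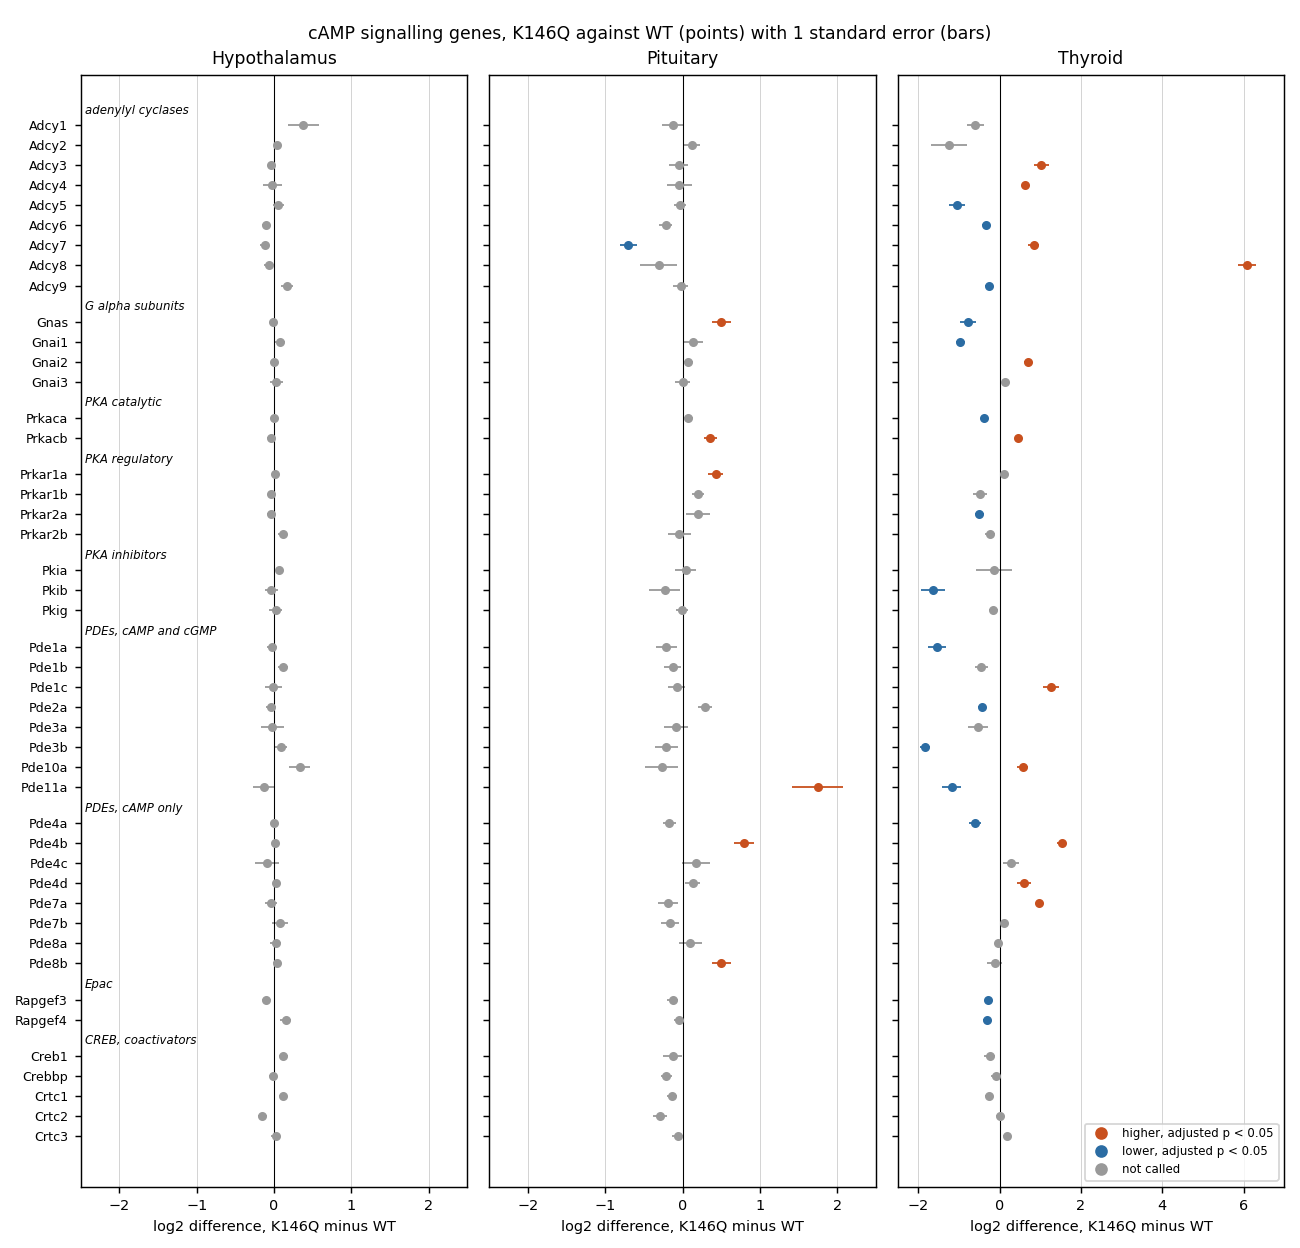
Log2 difference of each of the 45 members between K146Q and WT mice (horizontal axis, log2(CPM + 0.5) scale, bars 1 standard error, 3 mice a genotype), by class and tissue, with the thyroid axis wider than the others. No hypothalamus point is coloured, 7 pituitary points are, and 26 thyroid points are, with Adcy8 at 6.08.

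The adenylyl cyclases held the largest difference of the set. Adcy8, a cyclase stimulated by calcium and calmodulin that is best known from the brain, was near the detection limit in WT thyroid, at 0.821, 0.253 and 0.541 CPM, or 4 to 13 reads a library. The K146Q thyroids had 63.0, 70.2 and 70.9 CPM, or 1195 to 1272 reads. The 3 mutant values lay close together and far above every WT value. The mean was 126-fold higher, and the log2 difference was 6.08 (SE 0.21, adjusted p = 1.14e-05 by limma). This scale understates a gene so low in WT, and edgeR on the recovered reads gave 6.97. The call held in all 6 fits that left out a library, between 5.87 and 6.27. Adcy8 passed the filter on low values only through the K146Q group, so the adjusted p and these fits are no independent support. Adcy8 (ENSMUSG00000022376.8) lies on chromosome 15 from 64697084 to 64922296 on the minus strand (GRCm38, GENCODE M21).

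The other tissues showed no such difference in Adcy8. In hypothalamus, whose table was normalized separately, Adcy8 stood at 58.8, 57.7 and 50.8 CPM in WT and 52.0, 50.7 and 57.8 CPM in K146Q mice, with the genotypes overlapping (log2 difference -0.0597, adjusted p = 0.998). Pituitary values were 0.489, 0.972 and 0.513 CPM in WT and 0.310, 0.408 and 0.552 CPM in K146Q mice, again overlapping. The genotype effect in pituitary minus that in thyroid was -6.39 (SE 0.26, adjusted p = 4.25e-11). Summed neuronal markers (Snap25, Syt1, Rbfox3, Slc17a6 and Gad1) were at 11.8 to 14.6 CPM in WT thyroid and 4.46 to 11.6 CPM in K146Q thyroid, with Snap25 called lower and none higher. Their part in the Adcy8 value was not tested.

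The cyclase most abundant per coding length in WT thyroid was Adcy6, which calcium inhibits. Its thyroid values were 181, 199 and 174 CPM in WT and 130, 152 and 158 CPM in K146Q mice. Every mutant value was below every WT value (log2 difference -0.34, SE 0.10, adjusted p = 0.034). This call was lost without WT mouse 1 or 2 or without K146Q mouse 60 or 62, with log2 differences of -0.25 to -0.39 over the 6 fits, and without the trend of spread on level (adjusted p = 0.061). Adcy6 was also the leading pituitary cyclase, at 344, 334 and 304 CPM in WT and 258, 289 and 295 CPM in K146Q mice. The pituitary groups did not overlap, yet the difference of -0.22 missed the threshold (SE 0.079, adjusted p = 0.115). In hypothalamus it had 92.9, 95.6 and 94.9 CPM in WT and 89.7, 85.0 and 88.7 CPM in K146Q mice.

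Adcy3, the cyclase of olfactory cilia, was raised in the mutant thyroid. It had 27.5, 27.1 and 30.6 CPM in WT and 47.6, 81.9 and 51.0 CPM in K146Q mice. K146Q mouse 62 was the highest, and the other 2 mutants still lay above all WT values (log2 difference 1.03, SE 0.19, adjusted p = 0.00539). Of its exonic bases 22.1% are shared with Cenpo on the opposite strand, and the strand used in counting is not given in the sources used here. In pituitary Adcy3 was at 26.6, 23.4 and 26.3 CPM in WT and 28.8, 24.4 and 21.0 CPM in K146Q mice, with the groups overlapping.

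Adcy4 and Adcy7, which are stimulated by G protein beta-gamma subunits, were also higher in the mutant thyroid. Adcy4 had 15.6, 15.9 and 16.1 CPM in WT and 24.0, 26.0 and 24.8 CPM in K146Q thyroid (log2 difference 0.63, SE 0.0901, adjusted p = 0.00157). Adcy7, a cyclase known from blood cells, had 16.6, 12.1 and 14.3 CPM in WT and 23.9, 25.7 and 28.4 CPM in K146Q thyroid. The groups stood apart, with a log2 difference of 0.84 (SE 0.14, adjusted p = 0.00273). Immune markers were higher in the same libraries, at 34.7 to 53.3 CPM in WT and 92.6 to 108 CPM in K146Q mice summed over 5 markers, with 3 of 4 tested called higher. Endothelial markers were at 620 to 705 CPM and 784 to 862 CPM, with 2 of 5 higher. Smooth muscle markers were at 123 to 136 CPM and 185 to 191 CPM, with 3 of 4 higher, and fibroblast markers at 684 to 812 CPM and 1310 to 1530 CPM, with 2 of 4 higher and 2 lower. The part of these cell types in the members that rose in thyroid was not tested.

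Adcy7 went the other way in pituitary. Its values there were 19.1, 20.8 and 17.4 CPM in WT and 11.9, 11.6 and 11.1 CPM in K146Q mice. All mutants were below all WT mice (log2 difference -0.70, SE 0.11, adjusted p = 0.00332), and it was the only member called lower in pituitary by limma on the deposited values. Immune markers summed to 14.8 to 17.0 CPM in WT and 19.9 to 31.2 CPM in K146Q pituitary, with 2 of 4 tested called higher. The part of cell make-up in the Adcy7 value was not tested. The difference between the pituitary and thyroid effects was -1.54 (SE 0.14, adjusted p = 4.58e-07, exact permutation p = 0.005, the smallest that 400 arrangements allow). The permutation shuffled genotype labels in each gland separately, although both glands held the same mouse numbers. Keeping both glands of a mouse together allows fewer arrangements, so this minimum could not be reached. The permutation also asks only whether genotype has an effect in either gland, not whether the 2 effects are equal. Hypothalamus values of Adcy7 were 37.4, 35.0 and 36.4 CPM in WT and 33.1, 34.5 and 32.1 CPM in K146Q mice, without overlap and without a call (adjusted p = 0.998).

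Adcy5 fell in the mutant thyroid. This cyclase, like Adcy6, is inhibited by calcium and is known from striatum and heart. The thyroid values were 9.35, 10.1 and 12.6 CPM in WT and 5.55, 3.76 and 5.69 CPM in K146Q mice (log2 difference -1.04, SE 0.19, adjusted p = 0.00526). In pituitary it stood at 200, 172 and 172 CPM in WT and 168, 176 and 186 CPM in K146Q mice, where the groups overlapped. Adcy1 and Adcy2 are best known from brain. Adcy2 in thyroid had 3.16, 8.04 and 9.74 CPM in WT and 4.26, 1.76 and 1.76 CPM in K146Q mice, and WT mouse 1 lay within the mutant range. WT mouse 1 was also the library with the least skeletal muscle RNA, since 6 muscle markers summed to 342 CPM there, 4310 and 6510 CPM in the other WT mice, and 3700, 895 and 783 CPM in K146Q mice. The Adcy2 difference of -1.24 was not called (adjusted p = 0.0609), and it was -1.69 without WT mouse 1 (adjusted p = 0.0112) and -1.60 without K146Q mouse 60 (adjusted p = 0.0338). The part of muscle RNA in this value was not tested.

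Adcy1, stimulated by calcium, led the cyclases of WT hypothalamus per coding length, and Adcy5 led there per exonic length. Adcy1 had 384, 351 and 237 CPM in WT and 395, 561 and 320 CPM in K146Q hypothalamus, a wide and overlapping spread (log2 difference 0.38, SE 0.20, adjusted p = 0.998). In thyroid it was at 1.83, 1.46 and 2.47 CPM in WT and 1.04, 1.18 and 0.997 CPM in K146Q mice, and the difference of -0.60 missed the threshold (adjusted p = 0.0585). Adcy9, the last of the class, fell slightly in thyroid (log2 difference -0.27, adjusted p = 0.0327). That call held in 2 of the 6 fits that left out a library, with log2 differences of -0.22 to -0.31, and was lost without the trend (adjusted p = 0.065).

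The make-up of the cyclase transcripts changed in thyroid. When each cyclase was expressed as CPM per kb of coding length, Adcy6 made up 54.1% ± 1.89 (SD, n = 3) of the class in WT and 36.9% ± 1.75 in K146Q thyroid. Adcy8 went from 0.150% ± 0.0825 to 16.1% ± 0.561, and Adcy3 from 8.52% ± 0.808 to 15.3% ± 3.73. Adcy9 went from 22.0% ± 0.644 to 15.7% ± 0.858. The summed level of all 9 was 97.3 ± 4.0 CPM per kb in WT and 113 ± 9.95 CPM per kb in K146Q thyroid. In pituitary Adcy6 and Adcy5 together held most of the class in both genotypes, at 51.3% and 26.3% in WT and 48.4% and 28.2% in K146Q mice.

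**Figure D2:**
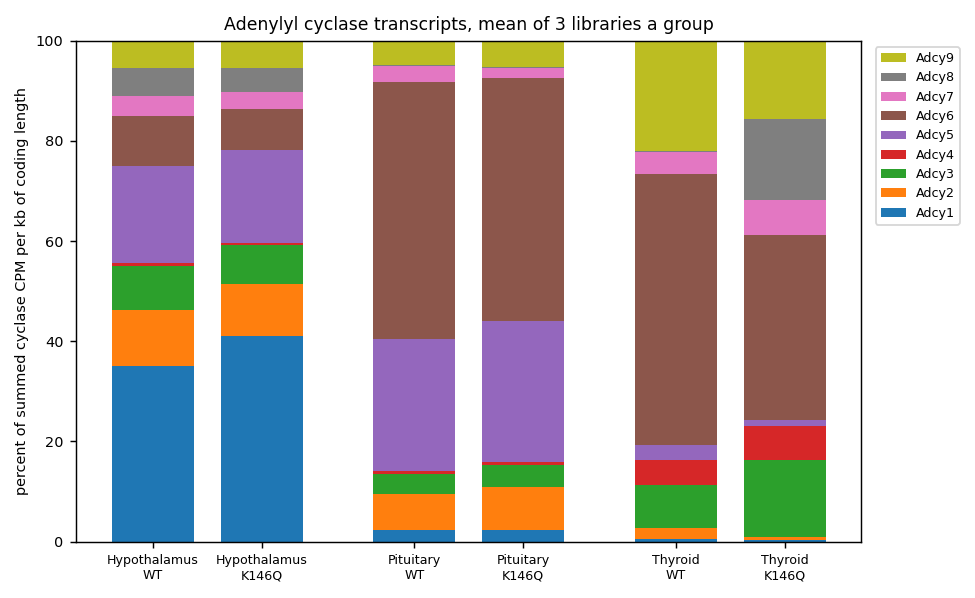
Share of each of the 9 adenylyl cyclases in their summed CPM per kb of coding length (vertical axis, percent; mean of 3 libraries a group) for 3 tissues and both genotypes. The Adcy8 band is 0.150% in WT thyroid and 16.1% in K146Q thyroid; the widest band is Adcy1 in hypothalamus (35.0% and 41.1%), and it is Adcy6 in pituitary.

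The G protein alpha subunits moved apart. Gnas, which encodes Gs alpha, was the most abundant of the alpha subunits per coding length in every WT tissue. In pituitary Gnas had 6890, 7550 and 6550 CPM in WT and 10900, 9920 and 8860 CPM in K146Q mice. All mutants were above all WT mice (log2 difference 0.50, SE 0.12, adjusted p = 0.0302). In thyroid the order was turned around, with 2400, 3020 and 2410 CPM in WT and 1730, 1430 and 1430 CPM in K146Q mice (log2 difference -0.77, SE 0.19, adjusted p = 0.0169). In hypothalamus the values were flat, at 1950, 1950 and 1980 CPM in WT and 1950, 1890 and 1970 CPM in K146Q mice (log2 difference -0.0196, adjusted p = 0.998). The pituitary effect minus the thyroid effect was 1.27 (SE 0.17, adjusted p = 2.8e-05, exact permutation p = 0.005 with each gland shuffled separately). The pituitary call is the less firm: it held only without WT mouse 2 or K146Q mouse 83, with log2 differences of 0.42 to 0.58, and under quantile normalization it was 0.0674 (adjusted p = 0.782). With no filter on low values its adjusted p was 0.234. The thyroid call was lost without K146Q mouse 62 or 83, with -0.72 in both. Gnas is a complex locus on chromosome 2, from 174284320 to 174346744, that makes several transcripts, and 22.0% of its exonic bases overlap Nespas and Gm20721 on the opposite strand, so these values are for the locus as a whole.

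The inhibitory subunits did not move as a group. Gnai1 fell in the mutant thyroid, with 26.0, 24.9 and 25.7 CPM in WT and 13.5, 11.2 and 14.0 CPM in K146Q mice (log2 difference -0.96, SE 0.11, adjusted p = 0.000731). In pituitary it was at 27.4, 19.9 and 22.2 CPM and 27.7, 23.3 and 25.2 CPM, with overlap. Gnai2 rose in thyroid, from 382 ± 28.8 to 616 ± 33.4 CPM (SD, n = 3 each; log2 difference 0.69, adjusted p = 0.00188), and Gnai3 was not called in any tissue.

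PKA showed opposite changes of its 2 catalytic subunits in thyroid. Prkaca, the widely expressed C alpha, had 137, 131 and 145 CPM in WT and 108, 106 and 102 CPM in K146Q mice (log2 difference -0.39, SE 0.0748, adjusted p = 0.00602). Prkacb, C beta, had 121, 106 and 109 CPM in WT and 152, 153 and 153 CPM in K146Q mice (log2 difference 0.45, SE 0.0789, adjusted p = 0.00401). Neither pair of groups overlapped, and both calls held in all 6 fits that left out a library. Prkaca fell from 58.3% ± 1.99 to 43.9% ± 0.911 (SD, n = 3) of the catalytic transcripts per coding length, while the sum of both was 225 ± 10.3 and 228 ± 2.65 CPM per kb. Per exonic length Prkaca was the larger of the 2 in all WT tissues, and per coding length Prkacb led in hypothalamus.

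In pituitary Prkacb was higher as well. The values were 220, 179 and 193 CPM in WT and 249, 252 and 256 CPM in K146Q mice (log2 difference 0.36, SE 0.0823, adjusted p = 0.0244). Its call was kept in 1 of the 6 fits, that without WT mouse 1, with log2 differences of 0.29 to 0.44, and was lost without the trend of spread on level (adjusted p = 0.0782). Prkaca in pituitary had 177, 199 and 197 CPM in WT and 199, 198 and 205 CPM in K146Q mice, a log2 difference of 0.0716 (adjusted p = 0.574). The effects on Prkaca in the 2 tissues differed by 0.46 (SE 0.079, adjusted p = 0.000285). In hypothalamus Prkaca ran from 284 to 293 CPM and Prkacb from 495 to 556 CPM over all 6 mice.

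Among the regulatory subunits, Prkar1a was the most abundant per coding length in each WT tissue. Prkar1a encodes RI alpha, whose loss in humans causes Carney complex. In pituitary it had 515, 510 and 503 CPM in WT and 799, 611 and 661 CPM in K146Q mice. The WT mice were nearly equal and all mutants were higher (log2 difference 0.43, SE 0.0969, adjusted p = 0.0232). The call was lost without K146Q mouse 60 (0.32) and without WT mouse 2 (0.43) or 43 (0.42), and also where the spread was not fitted as a trend on the level (adjusted p = 0.0724) or under quantile normalization (0.25, adjusted p = 0.0817). In thyroid Prkar1a had 384, 374 and 369 CPM in WT and 396, 422 and 408 CPM in K146Q mice, a log2 difference of 0.12 (adjusted p = 0.293) that turned to -0.0905 under quantile normalization. In hypothalamus it ran from 685 to 747 CPM over all 6 mice.

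The type II subunit Prkar2a fell in thyroid. Its values were 118, 127 and 142 CPM in WT and 83.9, 85.9 and 104 CPM in K146Q mice (log2 difference -0.50, SE 0.11, adjusted p = 0.0106), and without K146Q mouse 62 the adjusted p was 0.0507. Prkar1b, the neuronal RI beta, had 7.45, 8.67 and 10.9 CPM in WT and 6.94, 6.76 and 5.16 CPM in K146Q thyroid, which missed the threshold (adjusted p = 0.0754). In pituitary Prkar2a had 54.2, 45.4 and 69.6 CPM and 65.6, 56.5 and 69.9 CPM. Prkar1b was there at 158, 153 and 133 CPM and 178, 170 and 161 CPM. Neither was called in pituitary, but the effect in pituitary minus that in thyroid was 0.70 for Prkar2a (adjusted p = 0.00559) and 0.68 for Prkar1b (adjusted p = 0.00364). Prkar2b was not called in any tissue.

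Pkib, an inhibitor peptide that binds the free catalytic subunit, was the only 1 of the 3 inhibitors called. In thyroid it had 14.4, 22.9 and 13.7 CPM in WT and 7.78, 4.41 and 3.52 CPM in K146Q mice (log2 difference -1.64, SE 0.30, adjusted p = 0.00473), with all mutants below all WT mice. The highest WT value of Pkib was in mouse 2, which also had the highest parathyroid marker sum, 6410 CPM against 3450 and 4130 CPM in the other WT mice. Whether parathyroid RNA had a part in this value was not tested. In pituitary Pkib was at 7.07, 7.95 and 5.87 CPM and 5.31, 7.96 and 4.61 CPM, with overlap. Pkia, the muscle and brain form, was flat on average in thyroid but varied among mice, with 8.97, 25.2 and 27.5 CPM in WT and 26.0, 12.5 and 14.7 CPM in K146Q mice. The library low in muscle markers among WT mice (mouse 1) and the library high in them among mutants (mouse 60) were also the lowest and highest for Pkia within their genotypes. Whether muscle RNA had a part in this was not tested. Pkia led the class per coding length in hypothalamus, at 136, 143 and 148 CPM in WT and 149, 147 and 151 CPM in K146Q mice. Pkig led in pituitary and thyroid, at 37.4, 36.8 and 39.6 CPM and 37.3, 38.1 and 37.7 CPM in pituitary, and at 22.1, 26.1 and 27.1 CPM and 24.3, 22.5 and 20.9 CPM in thyroid.

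Of the 16 phosphodiesterases, 5 were higher and 5 lower in thyroid, 31.2% each way, against 19.7% and 18.1% of all genes. The 8 PDEs that hydrolyse only cAMP held 3 of the rises (Pde4b, Pde4d and Pde7a) and 1 of the falls (Pde4a), or 37.5% and 12.5%. Pde4b, a PDE known as inducible by cAMP itself, had 23.4, 20.2 and 18 CPM in WT and 59.6, 60 and 60.1 CPM in K146Q thyroid. The mutant values were nearly identical (log2 difference 1.53, SE 0.11, adjusted p = 9.62e-05). In pituitary Pde4b had 20.1, 17.8 and 15.7 CPM in WT and 36.1, 31.2 and 26.5 CPM in K146Q mice, also without overlap (log2 difference 0.79, SE 0.13, adjusted p = 0.00595). The calls of Pde4b held in all 6 fits without a library in each tissue. In hypothalamus it was at 97.0 ± 1.65 CPM in WT and 98.2 ± 3.88 CPM in K146Q mice (SD, n = 3). Pde4b was 1 of 5 members called in both pituitary and thyroid, with Adcy7, Gnas, Prkacb and Pde11a. Its rise in thyroid exceeded that in pituitary (difference -0.74, SE 0.15, adjusted p = 0.00119). Exact permutation gave p = 0.385, but shuffling each gland separately keeps this p high where both effects have the same sign.

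Pde7a, a high-affinity cAMP PDE known from T cells, rose with almost no spread. It had 25.6, 25.1 and 26.9 CPM in WT and 50, 52.0 and 52.8 CPM in K146Q thyroid (log2 difference 0.98, SE 0.0779, adjusted p = 0.000145). In pituitary it was at 19.4, 20.2 and 22.4 CPM and 15.1, 18.4 and 20.9 CPM, with overlap. Pde4d, a widely expressed PDE4 form, rose from 50 ± 12.9 to 75.0 ± 2.06 CPM in thyroid (SD, n = 3; log2 difference 0.61, adjusted p = 0.0254), a call that held in 2 of 6 fits without a library (0.43 to 0.80). Pde4a had 24.3, 28.3 and 26.8 CPM in WT and 20.8, 16 and 15.2 CPM in K146Q thyroid (log2 difference -0.60, SE 0.14, adjusted p = 0.0116). Without K146Q mouse 62 it was -0.55 with an adjusted p of 0.0516. Pde4a led its class per coding length in hypothalamus (129 to 139 CPM over all mice) and in pituitary (53.1, 53.1 and 46.5 CPM and 45.1, 46.3 and 43.8 CPM).

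Pde7b led the class in WT thyroid per coding length and Pde8a per exonic length. Pde7b had 104, 85.3 and 88.8 CPM in WT and 95.5, 105 and 98.4 CPM in K146Q thyroid, with overlap and no call (adjusted p = 0.415). Pde8b, a PDE that the broad inhibitor IBMX does not block, was higher in pituitary. Its values there were 27.5, 24.3 and 32.8 CPM in WT and 44.6, 37.2 and 38.3 CPM in K146Q mice (log2 difference 0.50, SE 0.12, adjusted p = 0.0309). The call held only without WT mouse 43, with log2 differences of 0.40 to 0.61 over the 6 fits, and was lost without the trend (adjusted p = 0.0722). In thyroid Pde8b had 2.72, 2.85 and 2.1 CPM and 2.08, 2.29 and 2.52 CPM. Pde4c and Pde8a were not called in any tissue.

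Among PDEs that act on both cAMP and cGMP, 2 rose and 4 fell in thyroid. Pde3b, the PDE through which insulin restrains lipolysis in adipocytes, had 34.0, 34.2 and 37.7 CPM in WT and 10.4, 8.17 and 10 CPM in K146Q thyroid. It was 3.71-fold lower (log2 difference -1.84, SE 0.12, adjusted p = 7.96e-05), the largest fall among the members on the log2(CPM + 0.5) scale. The 6 adipocyte markers summed 5.43-fold lower in the same libraries, and their part in the Pde3b value was not tested. In pituitary Pde3b had 66.6, 51.2 and 72.9 CPM and 49.5, 49.8 and 65.5 CPM, with overlap, where the adipocyte markers were at 3.66 to 8.17 CPM.

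The calcium-dependent PDE1 forms parted. Pde1a had 12.7, 19.7 and 10.9 CPM in WT and 4.46, 4.17 and 4.87 CPM in K146Q thyroid (log2 difference -1.54, SE 0.22, adjusted p = 0.00152). Pde1c had 34.2, 19.6 and 23.9 CPM in WT and 52.3, 63.6 and 68.5 CPM in K146Q thyroid (log2 difference 1.26, SE 0.20, adjusted p = 0.00254). For both genes the 2 groups stood apart in thyroid, and both calls held without any library. WT mouse 2 had the highest Pde1a value, as it had for Pkib and for the parathyroid markers. Whether parathyroid RNA had a part in the Pde1a value was not tested. In pituitary Pde1a was at 23.4, 20.1 and 15.5 CPM and 16.1, 16.6 and 17.4 CPM. Pde1c was there at 39.6, 32.1 and 30.7 CPM and 35.3, 30.0 and 31.4 CPM. Pde1b led this class in hypothalamus. It ran from 154 to 190 CPM there over all 6 mice, and in thyroid it had 12.3, 14.0 and 9.50 CPM and 8.92, 8.11 and 8.44 CPM (adjusted p = 0.0578).

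Pde11a turned in opposite directions in the 2 glands at low levels. In pituitary it had 0.222, 0.172 and 0.854 CPM in WT, or 3 to 15 reads, and 3.77, 2.2 and 1.66 CPM in K146Q mice, or 33 to 73 reads (log2 difference 1.75, SE 0.33, adjusted p = 0.00995). In thyroid it had 0.884, 0.949 and 0.782 CPM in WT, or 13 to 15 reads, and 0.0991, 0 and 0.234 CPM in K146Q mice, or 0 to 4 reads (log2 difference -1.18, SE 0.23, adjusted p = 0.00631). No group overlapped in either gland. In pituitary the gene passed the filter on low values only through the K146Q group, and in thyroid only through the WT group, so the adjusted p of each gland is no independent support. The effects differed by 2.93 (SE 0.36, adjusted p = 1.17e-05), in a fit over all 18 libraries. The hypothalamus values were enough for the gene to pass the filter of that fit, which the K146Q pituitary and WT thyroid values also met. In hypothalamus Pde11a was steady, at 3.34, 4.33 and 4.06 CPM and 3.38, 3.55 and 3.60 CPM.

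Pde10a and Pde2a completed this class. Pde10a, the striatal PDE, led in WT pituitary with 85.7, 125 and 76.7 CPM, against 105, 69.5 and 64.6 CPM in K146Q mice, with overlap. In thyroid it rose from 6.32, 6.01 and 5.11 CPM to 8.72, 9.64 and 8.15 CPM (log2 difference 0.57, SE 0.14, adjusted p = 0.017), a call lost without K146Q mouse 62 (0.51). Pde2a, stimulated by cGMP, led in WT thyroid with 48.9, 55.1 and 47.6 CPM, against 38.3, 40.5 and 33.6 CPM in K146Q mice (log2 difference -0.43, SE 0.10, adjusted p = 0.0139). In pituitary Pde2a had 37.8, 33.9 and 37.3 CPM and 46.0, 47.2 and 40.8 CPM, without overlap and without a call (adjusted p = 0.0712). The genotype effects on Pde2a differed by 0.72 (SE 0.12, adjusted p = 0.000257), but 64.3% of its exonic bases are shared with Gm45837 on the same strand. Pde3a was not called in any tissue.

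Summed per kb of coding length, the 8 PDEs for cAMP only stood at 141 ± 8.97 in WT and 188 ± 4.62 CPM per kb in K146Q thyroid (SD, n = 3). The 8 PDEs for both nucleotides stood at 59.8 ± 4.72 and 55.1 ± 3.02 CPM per kb. Pde4b went from 4.64% to 11.2% of all PDE transcripts, Pde7a from 8.93% to 14.7%, Pde1c from 5.58% to 11.0%, and Pde3b from 5.35% to 1.19%. In pituitary the sum of all 16 was 218 ± 6.30 and 215 ± 12.3 CPM per kb.

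**Figure D3:**
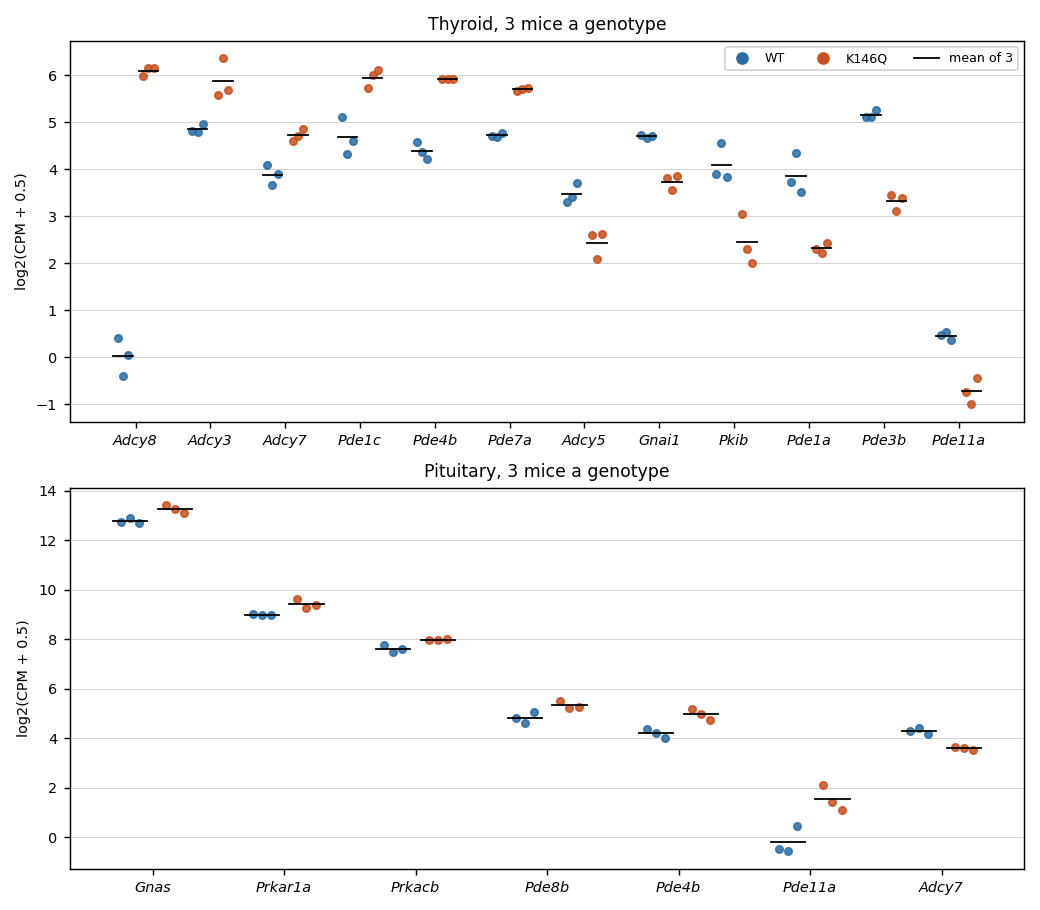
Values of 12 members in thyroid (top) and 7 in pituitary (bottom), as log2(CPM + 0.5), with 1 point a library and the mean of 3 as a line. In thyroid Adcy8 rose from under 1 CPM to between 63.0 and 70.9 CPM, the Pde4b and Pde7a mutants sit on top of each other, and no gene shows overlap between genotypes.

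Epac1 (Rapgef3) and Epac2 (Rapgef4), which activate Rap when they bind cAMP, were both slightly lower in thyroid. Rapgef3 had 61.1, 63.8 and 54.2 CPM in WT and 47.9, 50.1 and 48.5 CPM in K146Q thyroid (log2 difference -0.28, SE 0.0857, adjusted p = 0.0343). Rapgef4 had 15.5, 15.8 and 16.4 CPM in WT and 12.6, 12.5 and 12.9 CPM in K146Q thyroid (log2 difference -0.31, SE 0.0983, adjusted p = 0.0384). Both calls are marginal: that of Rapgef3 held only without WT mouse 43 (log2 differences of -0.23 to -0.35) and that of Rapgef4 in none of the 6 fits (-0.29 to -0.33). Without the trend, Rapgef3 had an adjusted p of 0.0626. Rapgef3 led in pituitary, at 118, 121 and 134 CPM and 108, 117 and 115 CPM. Rapgef4 led in hypothalamus, at 170, 185 and 162 CPM and 174, 206 and 197 CPM.

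CREB and its coactivators were not called in any tissue by limma on the deposited values. With totals without the 10 highest genes, limma called Crtc1 lower in thyroid (-0.34, adjusted p = 0.0465) and Crtc2 lower in pituitary (-0.34, adjusted p = 0.0427). Creb1 had 56.7, 60.4 and 45.3 CPM in WT and 42.6, 43 and 50.8 CPM in K146Q thyroid (log2 difference -0.24, SE 0.13, adjusted p = 0.173), and without WT mouse 43 it was -0.37 (adjusted p = 0.0454). In pituitary it had 65.0, 50.3 and 53.9 CPM and 46.4, 50.1 and 57.9 CPM, and in hypothalamus 43.7, 48.5 and 44.6 CPM and 48.3, 49.3 and 50.8 CPM. The genotypes overlapped in all 3 tissues. Crtc1, a coactivator that moves into the nucleus on cAMP signals, led the class per coding length in hypothalamus (160, 152 and 152 CPM against 163, 168 and 170 CPM) and pituitary (153, 152 and 145 CPM against 134, 138 and 136 CPM). Crtc2 had 59.0, 70.6 and 58.8 CPM in WT and 52.0, 51.6 and 50 CPM in K146Q pituitary, a log2 difference of -0.29 (adjusted p = 0.0736). In thyroid it was at 49.3, 49.7 and 48.4 CPM and 45.8, 53.5 and 48.8 CPM. Transcript levels do not report phosphorylation of CREB, and Crebbp and Crtc3 stayed between -0.21 and 0.18 on the log2 scale in all tissues.

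Promoter windows of 300 bases from RefSeq (GRCm38.p6; 250 bases before to 50 bases after a gene start) were searched on both strands for the full CRE, TGACGTCA, and for its short core, TGACG. Windows were found for 37 of the 45 members, 80 in all, since a gene can have several starts. The full CRE was in 2 of these 80, overlapping windows of Prkar1a that share the site, and in 1.79% of all 32851 windows. The core was in 21 of the 80 (26.2%), from 17 members, and in 20.8% of all windows. It is contained in the full CRE. No window was found for Adcy6, Adcy8, Gnai2, Pkia, Pde3a, Pde3b, Pde7a and Crtc2. The windows shown are ones that hold a match. They are a window of Prkar1a with the full CRE (chr11:109650699-109650998, plus strand) and a window of Pde4b, which rose in both glands (chr4:102421305-102421604, plus strand). The last is a window of Adcy7, which went in opposite directions (chr8:88282742-88283041, plus strand). The other windows of Pde4b and Adcy7 held neither the full CRE nor the core. Capitals mark the full CRE 49 bases before the start in Prkar1a, and the core on the minus strand, 34 and 28 bases before the start, in Pde4b and Adcy7.
Prkar1a: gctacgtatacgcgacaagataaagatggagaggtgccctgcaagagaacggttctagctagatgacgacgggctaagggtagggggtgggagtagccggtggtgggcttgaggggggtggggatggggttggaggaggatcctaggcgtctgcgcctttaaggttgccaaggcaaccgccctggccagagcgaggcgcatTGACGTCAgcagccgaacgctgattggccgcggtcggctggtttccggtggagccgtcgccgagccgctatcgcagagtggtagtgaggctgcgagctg
Pde4b: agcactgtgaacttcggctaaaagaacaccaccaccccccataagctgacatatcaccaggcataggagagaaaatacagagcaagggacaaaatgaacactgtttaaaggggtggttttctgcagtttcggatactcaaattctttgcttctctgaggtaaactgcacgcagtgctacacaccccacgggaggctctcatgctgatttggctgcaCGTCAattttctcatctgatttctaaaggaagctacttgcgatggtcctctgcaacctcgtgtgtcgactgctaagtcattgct
Adcy7: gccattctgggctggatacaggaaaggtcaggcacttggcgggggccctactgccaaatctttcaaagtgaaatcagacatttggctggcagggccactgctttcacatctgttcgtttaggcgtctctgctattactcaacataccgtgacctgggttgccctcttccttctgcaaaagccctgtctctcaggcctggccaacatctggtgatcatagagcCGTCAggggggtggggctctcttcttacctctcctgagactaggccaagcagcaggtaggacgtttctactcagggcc
A match of letters is a description and shows no binding.

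The genotype effect differed between pituitary and thyroid for 27 of the 45 members, 16 with the pituitary effect the higher and 11 with the thyroid effect the higher. Over 17140 genes tested these shares were 17.4% and 16.4%, against 35.6% and 24.4% of the members. Of the 27, 17 had opposite signs in the 2 glands. Only Adcy7, Gnas and Pde11a among them were called in both tissues, while for the other 14 at least 1 of the 2 effects missed its own threshold. The share with opposite signs was not counted over all genes, so 17 of 27 is a description of the members only.

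**Figure D4:**
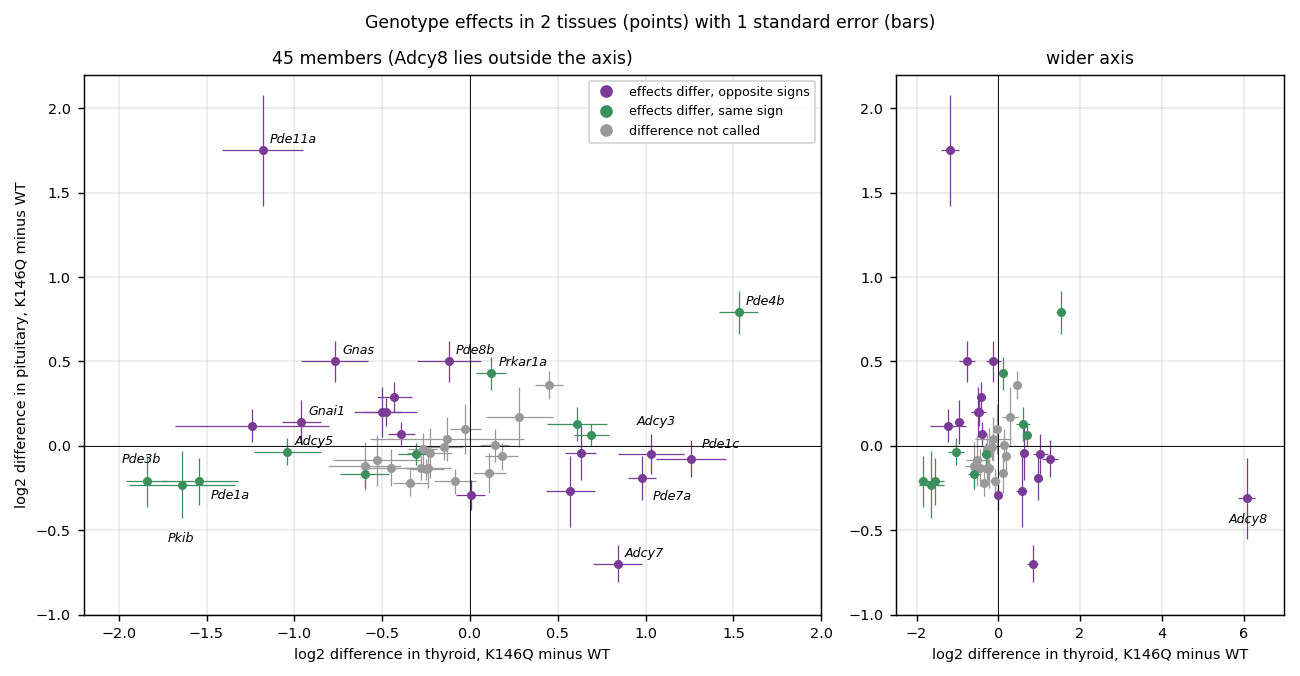
Log2 difference between K146Q and WT in thyroid (horizontal) and pituitary (vertical) for the 45 members, with bars of 1 standard error; the right panel widens the horizontal axis to show Adcy8. Purple points (17) have effects that differ with opposite signs, and Pde4b lies farthest to the upper right with 1.53 in thyroid and 0.79 in pituitary.

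Other genes of the pathway were read from 5 lists with 71 genes, of which 70 were found and 53 tested in thyroid. There 9 were higher and 14 lower, and in pituitary 3 were higher and 6 lower of 58 tested, with 0 of 60 called in hypothalamus. These are 17.0% and 26.4% of the genes tested in thyroid, against 19.7% and 18.1% of all genes, and 5.17% and 10.3% in pituitary, against 6.36% and 3.5%. The shares called higher were near those of all genes, and the shares called lower were above them. Among Gs-coupled receptors, 3 of 13 tested were higher and 4 lower in thyroid, or 23.1% and 30.8%, the first near the 19.7% of all genes. Tshr had 284, 203 and 271 CPM in WT and 490, 525 and 552 CPM in K146Q thyroid (log2 difference 1.06, SE 0.14, adjusted p = 0.00114). The beta-adrenergic receptor of fat, Adrb3, fell from 12.3, 19.3 and 19.5 CPM to 2.53, 1.12 and 3.17 CPM (log2 difference -2.71, adjusted p = 0.000765), in the libraries where adipocyte markers fell. Adrb1 also fell (-1.75, adjusted p = 0.0161). Crhr1 had 0.0632, 0 and 0 CPM in WT and 0.545, 0.882 and 0.879 CPM in K146Q thyroid, and it passed the filter on low values only through the K146Q group.

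Among Gi-coupled receptors, Adra2a rose in thyroid, from 2.72, 1.9 and 1.74 CPM to 7.24, 8.58 and 7.21 CPM (log2 difference 1.66, adjusted p = 0.000596), and Cnr1 fell by 1.67 (adjusted p = 0.00117). In pituitary Sstr4 had 0.845, 0.343 and 0.797 CPM in WT and 2.32, 1.99 and 1.45 CPM in K146Q mice, and Oprk1 had 0.934, 0.343 and 1.14 CPM and 1.91, 2.5 and 4.01 CPM. Both passed the filter only through the K146Q group. There the somatostatin receptor Sstr5 was lower (-1.10, adjusted p = 0.0289), a call that held in 2 of 6 fits without a library. Ghrhr, the somatotroph receptor for GHRH, had 120, 140 and 149 CPM in WT and 90.7, 104 and 96.8 CPM in K146Q pituitary (log2 difference -0.48, adjusted p = 0.0116). The dopamine receptor Drd2 had 91.2, 98.4 and 85.2 CPM and 98.2, 87.4 and 78.7 CPM there, with overlap.

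Of the CREB family and the kinases that restrain CRTC proteins, Creb3l1 in pituitary changed the most. It had 26.9, 38.3 and 58.3 CPM in WT and 255, 164 and 136 CPM in K146Q pituitary (4.49-fold, adjusted p = 0.00133), with no overlap between genotypes. Creb3l1 encodes a factor anchored in the membrane of the endoplasmic reticulum and released by cleavage. In thyroid Creb5 rose by 1.42 (adjusted p = 0.0082), and Crem, Creb3 and Sik2 were called with smaller differences (0.76, 0.61 and -0.87). Of the anchoring proteins that hold PKA in place, Akap6 fell in pituitary, from 5.38, 5.72 and 6.89 CPM to 2.22, 2.40 and 2.86 CPM (log2 difference -1.12, adjusted p = 0.00241). In thyroid 3 of 11 tested were lower, or 27.3%, against 18.1% of all genes, and 0 were higher. In the last list, Gnaz fell by 1.10 in thyroid (adjusted p = 0.000867). The soluble cyclase Adcy10 lay at 0.601 to 1.14 CPM in WT and at most 0.0991 CPM in K146Q thyroid, and it passed the filter only through the WT group.

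**Figure D5:**
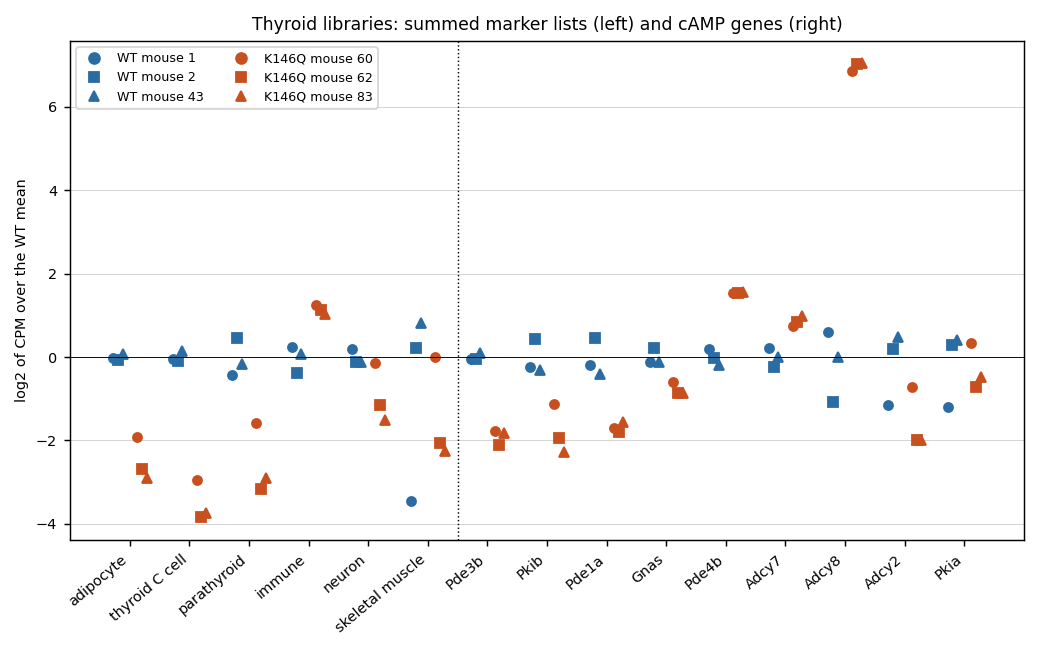
Level of each thyroid library relative to the WT mean (vertical axis, log2 of CPM over the mean of the 3 WT libraries) for summed marker lists (left of the dotted line) and for 9 members (right), with a symbol for each mouse. Adipocyte, C-cell and parathyroid sums are low in all mutants, muscle is low in WT mouse 1, and Adcy8 stands about 7 log2 units above WT and the neuron sum runs from 4.46 to 11.6 CPM in mutants against 11.8 to 14.6 CPM in WT.

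In pituitary the members that rose did so in libraries richer in thyrotroph RNA. Tshb and Cga together went from 3390 to 4600 CPM in WT to 21800 to 28900 CPM in K146Q mice, with both called higher. Prl, the lactotroph marker, went from 19100 to 30700 CPM to 6930 to 8660 CPM and was called lower. Neuronal markers went from 486 to 555 CPM to 758 to 858 CPM, with 3 of 5 called higher. The part of cell make-up in the rises of Gnas, Prkar1a, Prkacb, Pde4b, Pde8b and Pde11a was not tested.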

How the data were processed

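RNA-Seq was run on hypothalamus, pituitary and thyroid of 3 WT and 3 K146Q mice. The submitters' processing notes name bcl2fastq 2.17, Bowtie2 2.1.0, RSEM 1.2.15 and the mm10 build, without further detail. The values the authors deposited are a signal per gene, gene counts scaled to a normalized library size (CPM), and whole reads could be recovered from 100% of 432972 values within 0.1 read. The deposited tables also hold the authors' own fold changes and p-values, which were not used. The study's methods describe collection of hypothalamus and pituitary; thyroid tables were analysed as labelled.

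Each tissue was tested alone with limma 3.58.1 (R 4.3.3; spread fitted as a trend on level) on log2(CPM + 0.5), for genes at 0.5 CPM or more in at least 3 libraries, with Benjamini-Hochberg adjustment over all genes tested and a threshold of 0.05. The genotype effect in pituitary minus thyroid was fitted over all 18 libraries with 6 group means. edgeR 4.0.16 and DESeq2 1.42.0 were run on recovered reads as alternatives, beside other pseudocounts, filters, scalings and leaving out each mouse. On simulated data limma recovered 100% of 200 genes changed by 2 on the log2 scale in each comparison. Of its calls 3.85% were false in hypothalamus, 4.31% in pituitary, 9.5% in thyroid and 4.76% in the fit over all tissues. The simulation gave every gene the same dispersion, changed only these 200 genes, and changed none at low levels. It therefore cannot show how well smaller differences, low genes or the real spread between mice were handled. Nothing says how libraries were prepared from each mouse beyond its number, so p-values measure the spread between these samples. Depth limits low genes: 3 reads were worth 0.133 to 0.190 CPM.

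The members and lists were chosen with earlier results of these data known. Members were described by library where called with a log2 difference of at least 1, where the effect differed between glands with opposite signs, or where they led their class in a WT tissue. Creb1 and Gnas were described in every tissue. Other members named with values were chosen after their values were seen.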

Additional observations from a re-analysis of the deposited data

Results flagged for a closer look

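The genotype effect (K146Q minus WT, log2) differed between pituitary and thyroid for 27 members by the test of the difference itself, with limma's adjusted p under 0.05. Each value here is the pituitary effect minus the thyroid effect.

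Among cyclases the difference was -6.39 for Adcy8, -1.54 for Adcy7, -1.08 for Adcy3 and -0.67 for Adcy4, and 1.36 for Adcy2 and 1.0 for Adcy5. Among G protein subunits it was 1.27 for Gnas, 1.10 for Gnai1 and -0.63 for Gnai2. Among PKA genes it was 0.46 for Prkaca, 0.31 for Prkar1a, 0.68 for Prkar1b, 0.70 for Prkar2a and 1.41 for Pkib. Among phosphodiesterases it was 2.93 for Pde11a, 1.64 for Pde3b, 1.32 for Pde1a, 0.72 for Pde2a, 0.62 for Pde8b and 0.43 for Pde4a on the pituitary side. On the thyroid side it was -1.34 for Pde1c, -1.18 for Pde7a, -0.83 for Pde10a, -0.74 for Pde4b and -0.48 for Pde4d. It was 0.26 for Rapgef4 and -0.29 for Crtc2.

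Exact permutation of genotype labels within each gland reached its smallest p, 0.005, for Adcy7, Gnas, Prkar1b, Pde2a and Pde11a. It gave 0.015 for Adcy8 and Pde7a, and it stayed above 0.05 for Adcy5 (0.07), Pde1a (0.085), Gnai2 (0.09), Pde3b (0.095), Pkib (0.1), Rapgef4 (0.1), Adcy2 (0.105), Prkar1a (0.17), Pde4a (0.205), Pde4d (0.22) and Pde4b (0.385). Pde11a was at 0 to 4 reads in K146Q thyroid and 3 to 15 reads in WT pituitary.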

How the results depend on the processing

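Leaving out 1 mouse at a time gave 2 to 4 members higher in pituitary (2 without K146Q mouse 60), 1 lower there, 9 to 11 higher and 8 to 15 lower in thyroid (8 without K146Q mouse 62), 19 to 25 with a differing effect between glands, and 0 in hypothalamus. Without the trend of spread on level, 3 members were higher in pituitary, with the calls of Prkar1a, Prkacb and Pde8b lost. Under quantile normalization 2 members were lower there, and 2 with totals without the 10 highest genes. The cause of these moves was not tested. The other settings kept each count of members within 1.5 times.

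Directions turned only for members called in neither fit. Over the fits without 1 mouse, the log2 difference in pituitary ran from -0.22 to 0.00347 for Adcy1, -0.16 to 0.0618 for Adcy3, -0.16 to 0.0557 for Adcy4 (0.00852 without K146Q mouse 60), -0.0746 to 0.0361 for Adcy5 (0.00114 without K146Q mouse 60), -0.057 to 0.19 for Pkia (-0.0192 without WT mouse 43), -0.0311 to 0.0213 for Pkig and -0.15 to 0.0341 for Pde1c. In thyroid it ran from -0.63 to 0.15 for Pkia (0.0801 without K146Q mouse 62, 0.0929 without WT mouse 2) and -0.0547 to 0.0561 for Crtc2 (-0.00608 without WT mouse 43). With totals without the 10 highest genes, Pkia was -0.017 in pituitary and Crtc2 -0.0907 in thyroid. Under quantile normalization, Crtc2 was -0.0158 and Prkar1a -0.0905 in thyroid.

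With mouse number as a replicate block, 27 members differed between glands. Libraries of the same number correlated weakly across tissues (3 of 18 pairs above 0.1, from -0.027 to 0.174), so the numbers were not used to pair them.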
